A study of Mus musculus with 4 samples.

Results

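Of the 49490 genes in the deposited table, 10 that brake the cell cycle or report p53 activity were chosen by name: the cyclin-dependent kinase (CDK) inhibitors Cdkn1a, Cdkn1b, Cdkn2a, Cdkn2b, Cdkn2c and Cdkn2d, and the p53 targets Mdm2, Ccng1, Phlda3 and Zmat3. All 10 passed the filter on low values and were among the 18378 genes tested. The samples were polyadenylated RNA of mouse CD8+ T cells, taken from lymph nodes and spleens and stimulated in culture. There were 2 libraries of the WT genotype, given in the series text as Irf8 fl/fl (an Irf8 gene flanked by recombination sites), and 2 libraries of the Irf8 knockout genotype, given as Irf8-/-. The sources used here do not give the means of deletion, strain, age, stimulus, time in culture or any pooling of animals. The labels do not say whether replicates were different animals or cultures, and the p-values take in just the variation among these 4 libraries, which could be technical.

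CDK inhibitors hold cells in G1. The INK4 proteins, encoded by Cdkn2a (p16), Cdkn2b (p15), Cdkn2c (p18) and Cdkn2d (p19), bind CDK4 and CDK6 and keep them from D-type cyclins. The CIP/KIP proteins, encoded by Cdkn1a (p21) and Cdkn1b (p27), bind whole cyclin-CDK complexes, above all those of CDK2. The transcription factor p53 raises Cdkn1a after DNA damage, together with Mdm2, Ccng1, Phlda3 and Zmat3. In T cells, p27 is known for its breakdown when resting cells enter the cycle, and p21 and p18 for limiting repeated division.

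The targeted gene went against its label. The normalized count of Irf8 was 6364 and 6081 in the WT-labelled libraries and 89508 and 90222 in the knockout-labelled ones. Its group means were thus 14.4-fold apart in the direction opposite to a loss. A gene total can hold reads from outside a deleted part, so it checks a deletion only in part. Whether the labels of the groups were exchanged was not tested, and an exchange would turn every direction given here. Groups are therefore named by their labels throughout, as WT-labelled and knockout-labelled, and higher means higher in the latter.

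Markers of other cells differed between the same groups, where 19.9% of all genes tested were called higher and 13.4% lower. Of 11 plasmacytoid dendritic cell markers, 11 were called higher, and their summed normalized count was 17911 to 17998 in the WT-labelled libraries and 287101 to 287897 in the others. Siglech and Tcf4, both defining markers of that cell, had mean fold changes of 418 and 65.6. Of 14 T cell markers, 13 were called lower, among them Cd3d, Cd3e and Cd8a, with a list median of -0.60 on the log2 scale and sums of 792778 to 795995 against 587621 to 593104. Of 7 conventional dendritic cell markers 6 were called higher (sums of 13497 to 13895 against 33284 to 33445), and of 6 neutrophil markers tested 6 (97.7 to 139 against 2224 to 2409). Mpo, Elane and Camp were at 0 reads in both WT-labelled libraries. A marker under the filter value of 10 in both of these was tested only through the knockout-labelled libraries. Its direction was thus fixed in advance, and the neutrophil and plasmacytoid dendritic cell counts include such markers. Of 8 macrophage markers 1 was called higher and 4 lower (16093 to 17615 against 21077 to 21410). Of 6 B cell markers tested 2 were called higher (190 to 208 against 1223 to 1228), and Ebf1 was at 0 in both WT-labelled libraries. The called share of the B cell markers, 33.3%, was close to the 33.4% called in either direction over all genes. The part of these cells in the results on the 10 genes was not tested. In RNA from a mixed sample, more cells of a type and more RNA per cell cannot be told apart.

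Cdkn1a, Phlda3 and Cdkn2d were the members called higher. RefSeq promoters (GRCm38.p6, 250 bases before to 50 after a start) are shown for these genes because their counts differed between the groups, and p53 is known to act on Cdkn1a and Phlda3. Of the 2 Cdkn1a starts the upstream one is shown, since the window of the other (chr17:29093519-29093818) held 0 matches to any motif searched. Capitals mark matches on either strand to the p53 half-site or to its core letters ACATGT, which can overlap it.
Cdkn1a, chr17:29090729-29091028, plus strand: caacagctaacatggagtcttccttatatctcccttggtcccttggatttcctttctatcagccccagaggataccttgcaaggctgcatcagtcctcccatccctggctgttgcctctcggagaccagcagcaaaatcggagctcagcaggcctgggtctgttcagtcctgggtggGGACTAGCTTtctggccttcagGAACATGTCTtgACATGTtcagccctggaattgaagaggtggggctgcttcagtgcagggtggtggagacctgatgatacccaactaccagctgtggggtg
Phlda3, chr1:135765835-135766134, plus strand: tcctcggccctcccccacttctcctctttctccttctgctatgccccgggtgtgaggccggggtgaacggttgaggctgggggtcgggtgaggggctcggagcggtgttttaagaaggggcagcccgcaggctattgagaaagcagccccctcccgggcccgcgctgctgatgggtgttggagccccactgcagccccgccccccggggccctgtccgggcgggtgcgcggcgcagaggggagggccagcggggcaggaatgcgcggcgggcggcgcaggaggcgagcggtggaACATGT
Cdkn2d, chr9:21291160-21291459, minus strand: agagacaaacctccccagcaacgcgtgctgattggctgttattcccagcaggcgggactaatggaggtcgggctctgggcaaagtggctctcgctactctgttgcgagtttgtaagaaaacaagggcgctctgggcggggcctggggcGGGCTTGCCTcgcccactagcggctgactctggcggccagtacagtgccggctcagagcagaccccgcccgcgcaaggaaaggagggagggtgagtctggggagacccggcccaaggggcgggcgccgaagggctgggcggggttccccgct

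The upstream Cdkn1a promoter held 2 half-site matches and 2 copies of ACATGT, and the Cdkn2d promoter 1 half-site match. The Phlda3 promoter held 1 copy of ACATGT in the bases after the start. That copy ends on the last base of the window, so a half-site running past this edge could not be counted. Promoters were found for 9 of the 10 genes, all but Zmat3. The half-site was present for 4 of the 9, including GGGCAAGCCT for Ccng1 and GAACTTGCCT for Mdm2, against 9.55% of 27025 genes with a promoter, and ACATGT for 2 of the 9 against 6.14%. The letters GAAA, any 2 bases, GAAA and the letters GGAA, any 2 bases, GAAA, forms of the sites that interferon regulatory factors bind, were each present for 0 of the 9, against 3.99% and 3.16% of genes. The half-site took the place of a search for whole sites of 2 half-sites. ACATGT was added after the sequences had been read, so its share among the 9 cannot count as a test. The half-site share cannot either, since some of the genes were chosen as p53 targets. A gene with more than 1 promoter could also match in any of them. The matches describe letters in these windows and no binding was measured.

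**Figure D1:**
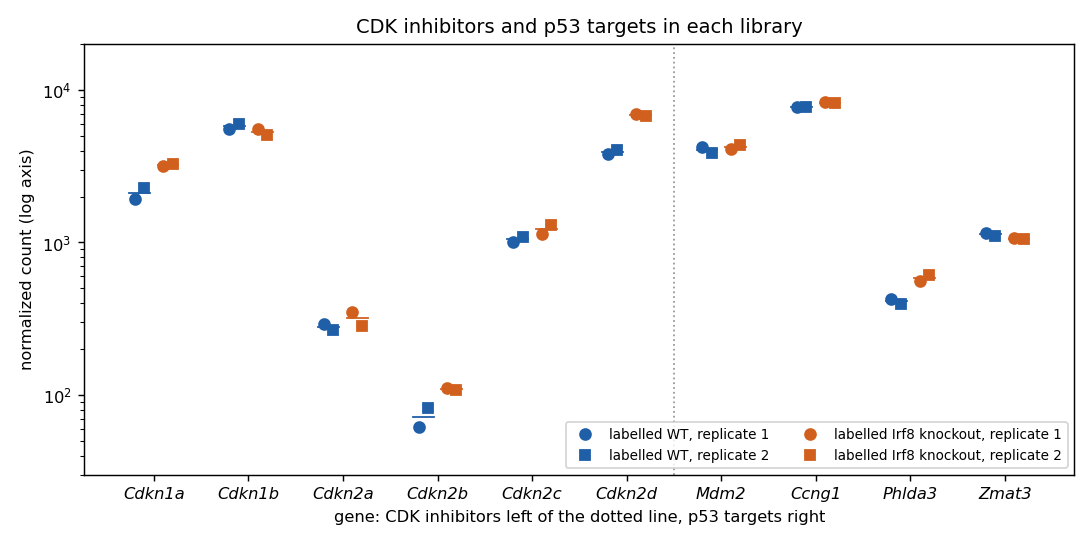
Normalized count (log axis) of each of the 10 genes in the 4 libraries, with horizontal bars at group means, CDK inhibitors left of the dotted line and p53 targets right. Cdkn2d stood at 3778 and 4016 in the WT-labelled libraries and at 6901 and 6736 in the knockout-labelled ones, while Mdm2 overlapped between groups.

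Among the CDK inhibitors, Cdkn2d and Cdkn1a were higher in the knockout-labelled libraries by limma, and the other 4 did not pass. Of the 10 genes, 3 were called higher and 0 lower at an adjusted p under 0.05, where 19.9% and 13.4% of the 18378 genes were called higher and lower. The members' share of 30% was thus close to the 33.4% called in either direction over all genes. No member was lower at an unadjusted p under 0.05 by limma. On recovered reads, edgeR and DESeq2 each called 3 members higher (20.1% and 19.0% of all genes) and 0 lower (14.4% and 13.9%). Without knockout-labelled replicate 1 or 2, limma called 1 member higher, Cdkn2d (7.39% and 7.12% of all genes), and 0 lower (3.78% and 3.43%). Groups did not overlap for 6 genes that were higher and 2 that were lower, against 36.5% and 32.3% of all genes. The median log2 fold change of the 10 genes was 0.19, beside 0.02 over all genes. In the authors' deposited table, with its sign turned to knockout over WT, the log2 fold changes were 0.81 for Cdkn2d (adjusted p = 5.79e-30), 0.62 for Cdkn1a (adjusted p = 1.62e-08) and 0.51 for Phlda3 (adjusted p = 0.0374). These 3 were the members with an adjusted p under 0.05 in the authors' deposited table, where 25.6% of genes with an adjusted p were under it and 15.5% were so and higher in knockout.

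Cdkn2d (ENSMUSG00000096472.2, chr9:21288410-21291407, minus strand, GRCm38) encodes p19, an INK4 inhibitor whose level oscillates through the cell cycle. Its normalized counts were 3778 and 4016 in the WT-labelled libraries and 6901 and 6736 in the knockout-labelled ones. Both knockout-labelled libraries lay above both WT-labelled ones. The means were 3897 ± 169 and 6818 ± 117 (SD, n = 2 each), a 1.75-fold difference. By limma the difference was 0.81 on the log2 scale (standard error 0.05, adjusted p = 7.47e-05). Among the 10 genes it alone stayed past the threshold under each of the 12 alternatives, with values from 0.51 to 0.85.

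Cdkn1a (ENSMUSG00000023067.14, chr17:29090976-29100727, plus strand) encodes p21, the inhibitor through which p53 arrests the cycle. Its normalized counts were 1931 and 2272 in the WT-labelled libraries and 3168 and 3286 in the knockout-labelled ones. The groups did not overlap, and the WT-labelled pair lay further apart than the other pair. The means of 2101 ± 241 and 3227 ± 83.7 (SD, n = 2 each) differed 1.54-fold. By limma the difference was 0.62 on the log2 scale (standard error 0.09, adjusted p = 0.00244). The call was lost without knockout-labelled replicate 1 (0.65, adjusted p = 0.0700) and without knockout-labelled replicate 2 (0.60, adjusted p = 0.0853), and limma, edgeR and DESeq2 adjusted p lay between 1.68e-08 and 0.0853 over the 12 alternatives. The table holds 1 value for both promoters, so use of the upstream start shown above was not measured. An annotated antisense gene model overlaps Cdkn1a, and whether counting used strand is not stated.

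Cdkn1b (ENSMUSG00000003031.14, chr6:134920401-134925513, plus strand), which encodes p27, was not called. It had 5563 and 5958 in the WT-labelled libraries and 5531 and 5081 in the knockout-labelled ones. The lowest WT-labelled value and the highest knockout-labelled one were close, and the groups did not overlap. Limma gave a log2 fold change of -0.12 with a 95% interval of -0.27 to 0.03 and an adjusted p of 0.189. As levels per kb of exon, the ratio of Cdkn1a to Cdkn1b was 0.445 and 0.489 in the WT-labelled libraries and 0.734 and 0.829 in the others. The 2 CIP/KIP genes therefore stood in different proportion in the groups, although with 2 libraries a group the smallest two-sided p of an exact permutation test is 0.333.

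The other INK4 genes, 3 in number, lie on chromosome 4 and were less abundant than Cdkn2d. Cdkn2c (ENSMUSG00000028551.14, chr4:109660876-109667189, minus strand), encoding p18, had 1013 and 1092 in the WT-labelled libraries and 1129 and 1305 in the knockout-labelled ones. Limma gave 0.21 on the log2 scale with a 95% interval of -0.04 to 0.45 and an adjusted p of 0.166. The groups did not overlap, but the difference was not past the threshold.

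Cdkn2b (ENSMUSG00000073802.5, chr4:89306299-89311039, minus strand), encoding p15, had 62.1 and 81.7 against 112 and 108. Its group means differed 1.53-fold, about as much as those of Cdkn1a, on 61 to 114 reads per library. The limma 95% interval ran from 0.02 to 1.21 around 0.62, the unadjusted p from the same fit over all genes was 0.0437 and the adjusted p 0.103, so that the difference did not pass after adjustment. Cdkn2a (ENSMUSG00000044303.6, chr4:89274471-89294653, minus strand), which yields p16 and, from another first exon, the p53-stabilizing ARF protein, had 292 and 267 against 351 and 284. The groups overlapped, and limma gave 0.18 with a 95% interval of -0.21 to 0.57 and an adjusted p of 0.444. The table has 1 value for both products of Cdkn2a, so they cannot be told apart.

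**Figure D2:**
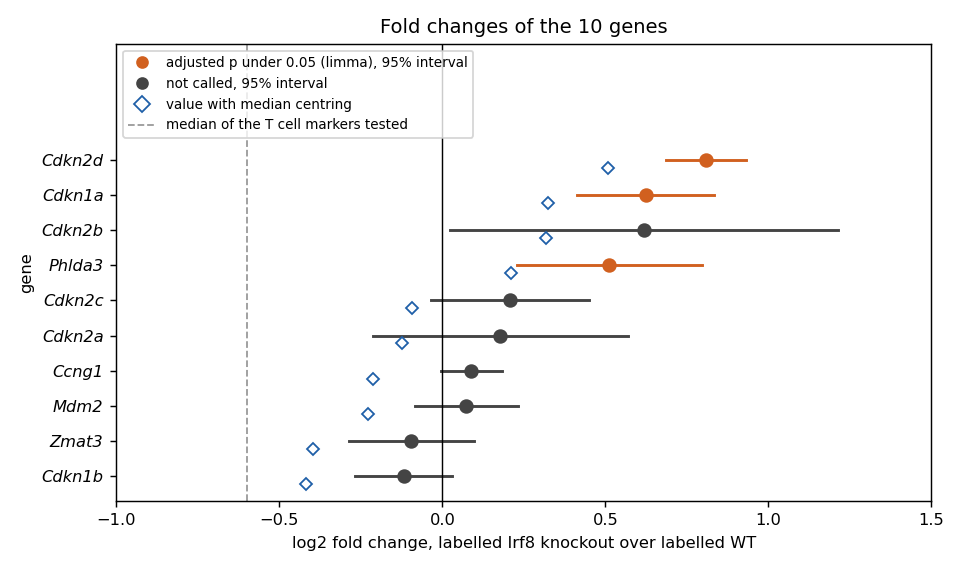
Limma log2 fold change of each gene, knockout-labelled over WT-labelled, with 95% intervals (filled circles, orange where called), the value with each library centred on its median (open diamonds) and the median of the T cell markers (dashed line at -0.60). The intervals of Cdkn2d, Cdkn1a and Phlda3 lie above 0 at all points, as does that of Cdkn2b, which was not called after adjustment.

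Of the 4 p53 targets beside Cdkn1a, Phlda3 was called higher and Mdm2, Ccng1 and Zmat3 were not called. Phlda3 (ENSMUSG00000041801.5, chr1:135766119-135769136, plus strand) encodes a small protein that keeps the kinase AKT from the membrane. It had 427 and 395 in the WT-labelled libraries and 559 and 615 in the knockout-labelled ones. The groups did not overlap, with means of 411 ± 22.8 and 587 ± 39.4 (SD, n = 2 each), 1.43-fold apart. By limma the difference was 0.51 on the log2 scale (standard error 0.12, adjusted p = 0.0178). The call was lost without knockout-labelled replicate 1 (0.58, adjusted p = 0.0957), without knockout-labelled replicate 2 (0.44, adjusted p = 0.152) and with median centring (0.21, adjusted p = 0.189), the highest adjusted p of its 12 alternatives, the lowest being 0.0111.

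Mdm2 (ENSMUSG00000020184.15, chr10:117688875-117710758, minus strand) encodes the ubiquitin ligase that marks p53 for destruction and is itself raised by p53. It had 4220 and 3844 in the WT-labelled libraries and 4103 and 4379 in the knockout-labelled ones. The groups overlapped, and the 95% interval of the limma log2 fold change of 0.07 ran from -0.08 to 0.23 (adjusted p = 0.435). On the linear scale that interval spans 0.943-fold to 1.17-fold, which does not reach the 1.54-fold of Cdkn1a.

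Ccng1 (ENSMUSG00000020326.7, chr11:40748552-40755311, minus strand) encodes cyclin G1, a partner of protein phosphatase 2A that acts on MDM2. It had 7778 and 7686 against 8272 and 8180. Each pair of libraries lay close together and the groups did not overlap, but the difference of 0.09 on the log2 scale was small (95% interval of -0.003 to 0.18, limma adjusted p = 0.125). Zmat3 (ENSMUSG00000027663.12, chr3:32334792-32366014, minus strand), an RNA-binding regulator of splicing, had 1159 and 1098 against 1064 and 1047. Its limma log2 fold change was -0.10 with a 95% interval of -0.29 to 0.10 and an adjusted p of 0.40. The linear-scale intervals of Ccng1 (0.998 to 1.13) and Zmat3 (0.820 to 1.07) likewise stop short of the 1.43-fold of Phlda3.

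Median centring turned the sign of several of these small differences, while edgeR and DESeq2, each with its own scaling of libraries, turned none. The median log2 fold change of all genes was 0.009 with edgeR and 0.008 with DESeq2. With each library centred on its median, the median log2 fold change of all genes moved from 0.02 to -0.28, and the calls among the 10 genes became 2 higher and 4 lower in place of 3 and 0, against 13.0% and 39.2% of all genes. Cdkn2d (0.51) and Cdkn1a (0.32) kept their calls. Cdkn1b (-0.42), Zmat3 (-0.40), Mdm2 (-0.23) and Ccng1 (-0.21) were called lower there, and the signs of Mdm2, Ccng1, Cdkn2a and Cdkn2c turned. Against the T cell markers, whose median was -0.60 under the deposited scaling, each of the 10 genes lay higher, from 0.48 above it for Cdkn1b to 1.41 above it for Cdkn2d. Most genes lay above that marker median too, since the median over all genes was 0.02, and the marker Trac (-0.01) lay above Cdkn1b and Zmat3.

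Levels of different genes were compared per kb of annotated exon, with the exons of all annotated transcripts of a gene merged. In the WT-labelled libraries the order ran from Cdkn2d (2476 ± 107 normalized counts per kb, SD, n = 2) through Ccng1 (2202 ± 18.6) and Cdkn1b (1266 ± 61.4) to Mdm2 (793 ± 52.4) and Cdkn1a (591 ± 68.0). Cdkn2c (392 ± 20.8), Phlda3 (264 ± 14.6), Cdkn2a (238 ± 15.4), Zmat3 (98.7 ± 3.80) and Cdkn2b (51.7 ± 9.98) followed. Phlda3 and Cdkn2a were closer than the sum of their SDs there, and each other pair of neighbours was further apart than that. In the knockout-labelled libraries 1 exchange of rank was seen: Cdkn1a (908 ± 23.6) stood above Mdm2 (834 ± 38.5). That exchange rests on the exon lengths used. By mean normalized count Mdm2 stood above Cdkn1a in the WT-labelled libraries (4032 against 2101) and in the knockout-labelled ones (4241 against 3227).

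**Figure D3:**
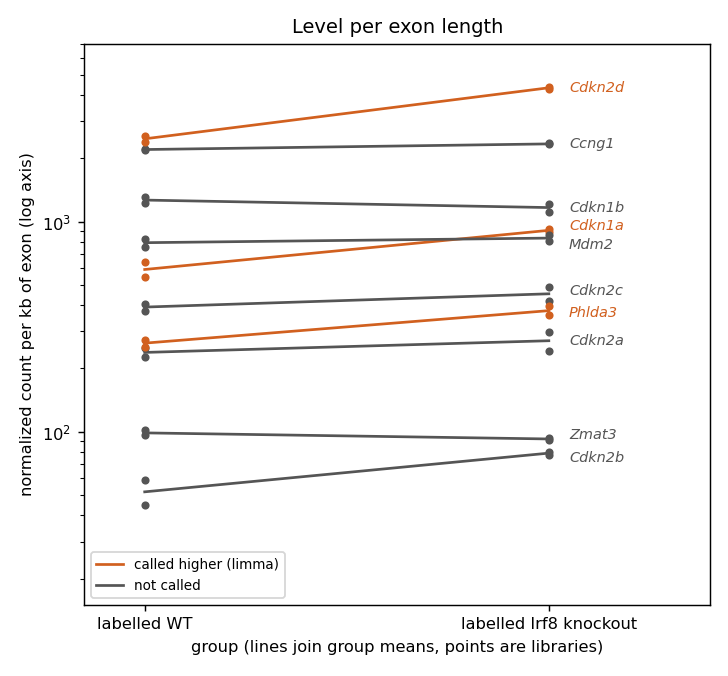
Normalized count per kb of exon (log axis) of the 10 genes in each group, with lines between group means and points for the libraries. The lines of Cdkn1a and Mdm2 cross, and the line of Cdkn2d rises from 2476 to 4332.

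The per-kb ratio of Cdkn1a to Mdm2 was 0.654 and 0.846 in the WT-labelled libraries and 1.10 and 1.07 in the knockout-labelled ones. The 6 CDK inhibitors summed to 5014 ± 252 per kb in the WT-labelled libraries and 7209 ± 116 in the knockout-labelled ones (SD, n = 2 each). Without Cdkn2d the sums were 2539 ± 145 and 2877 ± 41.9, so most of the gap in the summed level lay in that gene. Both pairs of sums rest on the deposited scaling. They were not taken with median centring, which lowers every log2 fold change. Cdkn2d made up 78.2% and 78.7% of the INK4 level in the WT-labelled libraries and 84.6% and 84.1% in the others.

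Genes whose centred log2 values over the 4 libraries lay nearest those of Cdkn2d were Ctso, Neil1 and Sc5d, at Euclidean distances of 0.020, 0.023 and 0.026 among 10831 candidates. Those nearest Cdkn1a were Apc, Cnpy2 and Nfkbie, at 0.046, 0.059 and 0.062. With 4 libraries in 2 groups, such nearness mostly restates a like difference between the groups: Ctso had 1707 and 1834 against 3181 and 3072.

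Of 36 further p53 targets 35 were tested, 5 were called higher and 6 lower, with a median of 0.01. The called share of 31.4% was near the 33.4% of all genes. Pmaip1, encoding the death-inducing protein NOXA, rose 2.07-fold from 3751 ± 79.7 to 7777 ± 145 (SD, n = 2 each; limma adjusted p = 1.51e-05). Sesn2, encoding the stress protein sestrin 2, rose 2.64-fold from 1211 ± 59.1 to 3199 ± 4.58 (SD, n = 2 each; limma adjusted p = 2.22e-05). Pidd1, which encodes a p53-induced death domain protein, rose by 0.63 on the log2 scale (0.33 once libraries were median centred). Ptprv, a tyrosine phosphatase gene, fell by 1.29 on the log2 scale, from 836 ± 65.8 to 340 ± 30.9 (SD, n = 2 each). Sfn, encoding 14-3-3 sigma, and Ddb2, encoding a DNA damage sensor, fell by 0.53 and 0.39. Bax, Bbc3, Fas and Sesn1, named after their values were seen, were at 0.07, 0.15, -0.04 and 0.02 on the log2 scale and not called. Pmaip1, Sesn2 and Ptprv were the genes of the list called without knockout-labelled replicate 1 or 2, that is 2 higher and 1 lower.

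Of p53 itself and its regulators, 3 of 20 tested were called higher and 2 lower, with a median of -0.05. Trp53, which encodes p53, had 12431 and 11848 in the WT-labelled libraries and 11330 and 11190 in the knockout-labelled ones (log2 fold change -0.11, limma adjusted p = 0.0839), and was called lower once libraries were median centred (-0.41). Hipk2, a kinase that phosphorylates p53, rose 1.91-fold and Rfwd2, encoding the ubiquitin ligase COP1, rose 1.70-fold, or by 0.77 on the log2 scale (0.47 once centred). Usp7, the deubiquitinase of p53 and MDM2, rose by 0.33 on the log2 scale, a call lost once libraries were median centred (0.032, limma adjusted p = 0.717). Rpl11 and Rpl5, ribosomal proteins that can bind MDM2, fell by 0.38 and 0.33. Hipk2 (1 higher) and Rpl11 and Rpl5 (2 lower) were the genes called without knockout-labelled replicate 1 or 2.

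Among the partners of the inhibitors, 2 of 12 tested cyclins and CDKs were called higher and 2 lower, with a median of -0.06. Ccnd1, encoding cyclin D1, had 1303 and 1229 in the WT-labelled libraries and 12269 and 11873 in the knockout-labelled ones, a 9.53-fold increase (limma adjusted p = 3.39e-07). Ccnd2, encoding cyclin D2, fell by 0.36 on the log2 scale, from 30027 ± 537 to 23380 ± 273 (SD, n = 2 each). Cdk2 rose by 0.45, a call lost once libraries were median centred (0.15, limma adjusted p = 0.203), and Cdk4 fell by 0.15 (-0.45 once centred). Ccnd1 (1 higher) and Ccnd2 (1 lower) were called without knockout-labelled replicate 1 or 2.

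In the RB and E2F list, 3 of 13 were called higher and 1 lower, with a median of -0.10. E2f1, a transcription factor that RB proteins hold in check, rose 1.80-fold from 634 ± 15.9 to 1141 ± 46.5 (SD, n = 2 each), or by 0.85 on the log2 scale (0.55 once centred). Rb1 and Tfdp1 rose by 0.36 and 0.21 and both calls were lost once libraries were median centred (0.057 for Rb1, limma adjusted p = 0.515, and -0.09 for Tfdp1). Rbl2, encoding p130, fell by 0.35. E2f1 alone of this list was called by limma without knockout-labelled replicate 1 or 2. Of 9 ubiquitin ligase parts that degrade p27 and p21, Cul4a rose by 0.27 (-0.03 once libraries were median centred) and Dtl fell by 0.25. The list median was 0.09, and neither call held without knockout-labelled replicate 1 or 2, when far fewer of all genes were called too. Skp2, which recognises p27 and was named after its value was seen, was at 0.05 and not called.

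Among regulators of the inhibitor genes, 2 of 24 were called higher and 7 lower, with a median of -0.13. Klf4 rose 1.82-fold from 2116 ± 122 to 3846 ± 14.5 (SD, n = 2 each), or by 0.86 on the log2 scale (0.56 once centred). Klf2, a factor of quiescent T cells, rose by 0.22 (-0.08 once libraries were median centred). Myc fell by 0.39, Gfi1 by 0.48 and Klf6 by 0.23. The list holds both activators and repressors of the inhibitor genes, and their part in the members' values was not tested. Without knockout-labelled replicate 1, 1 was called higher and 1 lower, and without replicate 2, 1 and 2, with Klf4 and Myc called in both.

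Among other brakes on division, calls were in the lower direction. So were those of the T cell markers (median of -0.60), and a link between them was not tested. Of 11 brakes tested, 0 were called higher and 5 lower, against 19.9% and 13.4% of all genes, with a median of -0.17. None was higher at an unadjusted p under 0.05 by limma, and edgeR and DESeq2 called 0 higher. Cables1, Tob1 and Btg1 fell by 0.51, 0.30 and 0.18 on the log2 scale, of which Tob1 and Btg1 encode antiproliferative proteins of resting T cells. Cdkn1c, the remaining CIP/KIP gene, named after its values were seen, had 96.7 and 105 against 73.5 and 134 and did not pass (adjusted p = 0.969 by limma). None of the 5 calls held without knockout-labelled replicate 1 or 2, when far fewer of all genes were called lower too.

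Of 18 proliferation genes, 1 was called higher and 3 lower, with a median of -0.04. Hmgb2, a chromatin protein of dividing cells, fell by 0.40 on the log2 scale and Pcna, the sliding clamp of replication, by 0.26. Mcm6, a subunit of the replicative helicase, fell by 0.18. Rrm2, a subunit of ribonucleotide reductase, rose by 0.33, a call lost once libraries were median centred (0.028, limma adjusted p = 0.694). Mki67, a marker of cycling cells named after its values were seen, had 2835 and 2965 against 2754 and 2546 and did not pass (-0.13, limma adjusted p = 0.174). Centring moved each named list gene by the same amount, so those that fell lay further from 0 under it. Hmgb2 alone of the 18 was called without knockout-labelled replicate 1 or 2, when far fewer of all genes were called too. The medians of the 8 pathway lists ran from -0.17 to 0.09, beside 0.02 over all genes, and their called shares from 22.2% to 45.5%, beside 33.4%. The part of the plasmacytoid dendritic cell markers, with a median of 6.71, in these values was not tested.

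**Figure D4:**
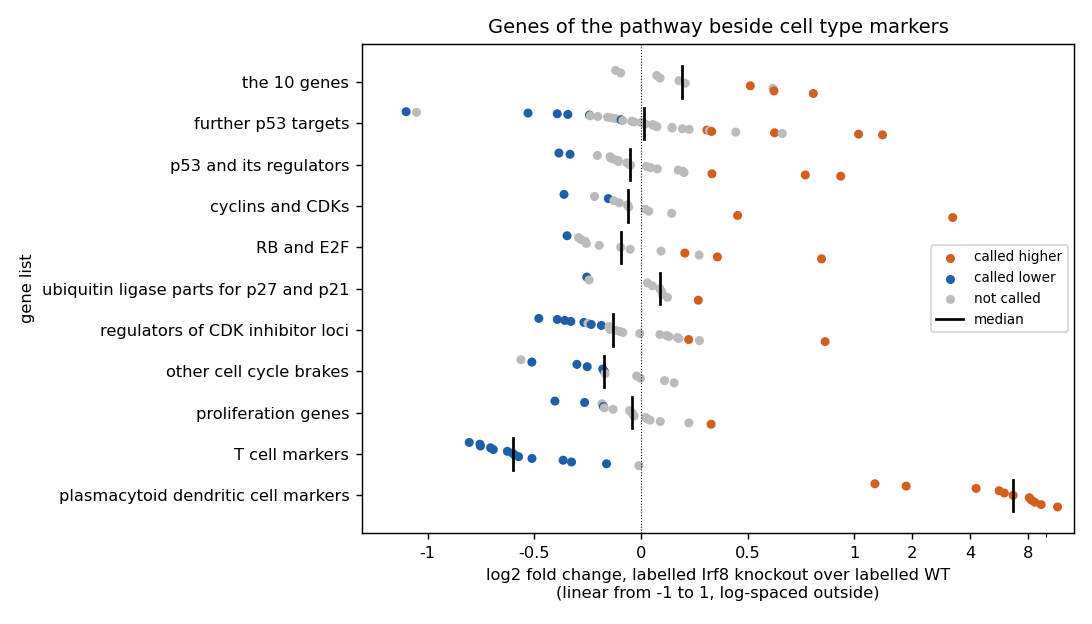
Limma log2 fold changes of the genes tested in each list (points, orange called higher, blue called lower, grey not called; bars are medians) on an axis that is linear from -1 to 1 and log-spaced outside. The pathway lists centre near 0, with Ccnd1 at 3.25, beside T cell markers at a median of -0.60 and plasmacytoid dendritic cell markers at 6.71.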

How the data were processed

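The tools named are HISAT2 2.2.1, Trim Galore 0.4.4, DESeq2 and StringTie 2.1.4, with mm10 as the build, per the submitters' processing notes. For settings, annotation and strand, the sources used here say nothing. The authors deposited 1 table with normalized counts per library (a signal: reads divided by a size factor, per the file headers and values), and, for WT over knockout, a log2 fold change, its error and a Wald score, and p-values with adjusted p-values. Of these comparison columns only the log2 fold changes and adjusted p-values were quoted, for members. Each value was a whole multiple of 1 step (within 0.01 reads for 100.0% of values), giving 58899365 to 59724952 recovered reads per library.

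The main test was limma 3.58.1 (trend, robust) on log2(normalized count + 1), with genes at 10 or more in at least 2 libraries, two-sided, adjusted by Benjamini-Hochberg over all genes at 0.05. Folds are ratios of group means. Fold changes on this scale understate changes of low genes. edgeR 4.0.16 and DESeq2 1.42.0 ran on the recovered reads as alternatives (edgeR called 3691 genes higher and 2652 lower). The test was tried on simulated counts, where the share of false calls was above the nominal one.

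Positions and exon lengths come from GENCODE M21 (GRCm38, the assembly of mm10), which held all 10 symbols once. None of the 10 genes overlaps another gene of the table. Of the table's names, 24 look like dates and were not used as gene names. Cop1 was read under its older name Rfwd2. The 10 genes, lists and tests were chosen with earlier results of these data known. The rule for named genes took Irf8, Trp53, the 10 genes, up to 3 called genes per direction and list with the smallest adjusted p, 5 defining markers, and the 3 genes nearest to each of the 2 members with the smallest adjusted p, among genes with a mean of at least 100. Outside the rule, Mpo, Elane, Camp, Ebf1, Bax, Bbc3, Fas, Sesn1, Skp2, Cdkn1c, Mki67, Trac and the neighbouring genes in the closing section were named after their values were seen. Alternatives were median centring, a minimum of 50 or no filter, a pseudocount of 0.1 or 10, a replicate block, leaving out each library, edgeR and DESeq2.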

Additional observations from a re-analysis of the deposited data

How the results depend on the processing

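Over 12 alternatives for each of the 10 genes, 109 of 120 values kept their direction and side of the threshold. Median centring turned Cdkn2a (-0.12), Cdkn2c (-0.093), Mdm2 (-0.23) and Ccng1 (-0.21). It changed the calls over all genes to 2389 higher and 7210 lower in place of 3662 and 2469 (24.9% of calls higher in place of 59.7%), and gave 4 members lower. Under it the calls higher and lower became 3 and 18 for further p53 targets, 1 and 7 for cyclins and CDKs, 1 and 7 for RB and E2F, 0 and 6 for ubiquitin ligase parts, 1 and 18 for regulators of the inhibitor genes, and 0 and 14 for proliferation genes, with 12 lower for p53 and its regulators and 9 lower for other brakes. RB and E2F had 2 lower with a minimum of 50 and with edgeR, and ubiquitin ligase parts 2 lower with DESeq2.

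Leaving out 1 library gave 1309 to 4137 genes higher and 630 to 2759 lower, and 1 to 3 members higher. The lists then had 2 to 7 higher and 1 to 5 lower (further p53 targets), 1 to 4 and 2 to 4 (p53 and its regulators), 1 to 2 and 1 to 3 (cyclins and CDKs), 1 to 4 and 0 to 3 (RB and E2F), 0 to 2 and 0 to 1 (ubiquitin ligase parts), 1 to 5 and 1 to 8 (regulators of the inhibitor genes), 0 to 6 lower (other brakes), and 0 to 1 and 1 to 4 (proliferation genes). A lone library is there assumed to vary like the other group. With the replicate number as a block, 3 members were called higher and 0 lower, with 3415 genes higher and 2168 lower, and no member's call changed. Deviations of same-numbered libraries correlated at 0.017 over 18378 genes, and the labels do not tie the numbers to a shared source. Cdkn2b had the fewest reads of the 10 genes, 61 to 114 reads per library.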

Other observations

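The protein-coding neighbours of the members, the nearest 2 on each side in GENCODE M21, were looked at as values, and those given here were chosen after their values were seen. Ap1m2, an adaptor subunit of clathrin coats, lies 2.87 kb from Cdkn2d and had 53.9 and 43.9 in WT-labelled libraries against 1520 and 1415 in knockout-labelled ones (log2 fold change 4.88, limma adjusted p = 5.12e-06). Slc44a2, a choline transporter gene 29.3 kb from Cdkn2d, had 15471 and 15030 against 34685 and 33912. Kri1 and Atg4d, on the other side of Cdkn2d, did not pass, at 0.11 and 0.15. Rab44, a small GTPase gene 13.4 kb from Cdkn1a, had 0 reads in each WT-labelled library and 91.1 and 132 in the others. It passed the filter only through the latter, which fixed its direction in advance. The knockout-labelled mean of Rab44 was 36.5-fold a floor of 3 reads per library. Its limma call was lost without knockout-labelled replicate 1 or 2. Srsf3, Stk38 and Cpne5, also near Cdkn1a, had 0.10, 0.03 and 0.02 and did not pass. Cpm, a carboxypeptidase gene 1.52 kb from Mdm2, fell by 1.83 on the log2 scale, from 444 and 431 to 122 and 122. Slc35e3, on the other side of Mdm2, was called higher (0.65, limma adjusted p = 0.0120), a call lost without knockout-labelled replicate 1 (adjusted p = 0.124) or 2 (adjusted p = 0.0579) and with median centring (0.34, adjusted p = 0.0719). Tnni1, 10.3 kb from Phlda3, had 8.14 and 14.3 in the WT-labelled libraries, near the filter value of 10. Tnni1 (1.71), Lad1 (2.99, at 49.5 kb) and Nav1 (3.63, at 159 kb) were called higher by limma and Csrp1 (0.11) was not. Nav1 alone of these 3 was called without knockout-labelled replicate 1 or 2, and Tnni1 was not called with median centring (adjusted p = 0.0504). Mtap, 93.4 kb from Cdkn2a and 125 kb from Cdkn2b, was called lower (-0.28) and was at -0.58 with median centring. That call was lost without knockout-labelled replicate 1 or 2. No other neighbour that was tested passed. Over all genes tested 33.4% were called in either direction, so a call near a member does not by itself set that place apart.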
